A study of Homo sapiens with 6 samples.

Results

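The genes of cholesterol and fatty acid synthesis were examined in hESC-derived cultures of the third pharyngeal pouch endoderm (3PPE) that had received a control siRNA or an siRNA against HOXA3. The set was a fixed list of 30 symbols, 18 of them enzymes on the route to cholesterol, 7 of them enzymes of fatty acid synthesis and desaturation, 4 of them genes of the SREBP system that governs both routes, and STARD4, a carrier of sterols. Each symbol was found through its Ensembl identifier in GENCODE 29, which gave 30 of the 58735 rows of the count table, and gene positions are those of GENCODE 29 on GRCh38. The list does not hold every enzyme of these pathways. H9 (WA09) is an established line of hESCs, labelled wild type here. It was grown on a mouse feeder layer before differentiation, exposed on the first day to Activin A at 100 ng/ml, WNT3A at 50 ng/ml and the ROCK inhibitor Y-27632 at 10 μM, and then to Activin A with 0.5% B27. Cells were reseeded at day 4 on Matrigel in medium with 0.5% B27, RA at 1 μM, SB431542 at 10 μM, BMP4 at 20 ng/ml and IWP2 at 2.5 μM. Both groups shared all of these agents, Lipofectamine 3000 at day 7, and the replacement of the differentiation medium by opti-MEM some hours later. They differed in the siRNA, which was negative control siRNA in 3 libraries (siControl) and HOXA3 siRNA in 3 libraries (siHOXA3), all harvested at day 9. The knockdown is transient and the cells were all of 1 line. The study's legend for the figure with these libraries calls its repeats biological and independent, while the labels do not tie single libraries to separate cultures, and the p-values measure the spread between these libraries.

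Cells build cholesterol from acetyl-CoA through mevalonate, squalene and lanosterol, and build fatty acids from the same acetyl-CoA through malonyl-CoA. Transcription of both routes is driven by SREBP proteins, which are made as membrane precursors in the endoplasmic reticulum. SCAP escorts them to the Golgi for cleavage when sterols are low, INSIG proteins hold them back when sterols are high, and the released fragment binds sterol regulatory elements in promoters. SREBF2 encodes the form that acts mainly on the sterol genes, and SREBF1 encodes the forms that act mainly on the fatty acid genes. Cells in culture rely on these pathways when the medium brings little lipid, and rapidly dividing cells use them for new membrane.

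Reads were counted per gene, with totals between 14117150 and 15282307 per library, and are given here as CPM, counts scaled to the TMM-normalized library size. Under 3 counts, or 0.197 to 0.211 CPM, a gene could not be told from 0 by counting error alone. HOXA3, the gene targeted, had 16.6, 15.9 and 15.5 CPM in siControl replicates 1, 2 and 3 and 10.9, 13.2 and 15.5 CPM in siHOXA3 replicates 1, 2 and 3. The siHOXA3 libraries were the lower ones except replicate 3, which lay within the siControl range. The log2 fold change of HOXA3 was -0.27 (95% interval -0.62 to 0.071, edgeR adjusted p = 0.828), so the RNA of the targeted gene did not pass the test. By qRT-PCR and Western blot, which are other measures, the study reports a significant drop of HOXA3 RNA and protein after this siRNA. Of 13 markers of pouch endoderm, 8 passed the filter on low counts. Among these were the epithelial genes EPCAM (253 to 386 CPM), CDH1 (539.6 to 683 CPM), KRT8 and KRT18, and EYA1 (32.0 to 44.6 CPM) and BMP4 (39.5 to 50.3 CPM), while FOXA2, SOX17 and PAX1 had at most 2 counts in any library. The list summed to 6019 to 6243 CPM in siControl and 5698 to 7212 CPM in siHOXA3. Of 7 markers of amnion and trophoblast, 6 passed the filter, with GABRP at 866 to 1029 CPM and CGB5 near 0, and they summed to 2312 to 2606.5 CPM in siControl and 2376 to 2610.5 CPM in siHOXA3. Of 6 markers of mesenchyme, 5 passed, with COL1A1 at 1323 to 1635 CPM and PRRX1 at 0, and they summed to 2329 to 2494 CPM in siControl and 2421 to 2839.7 CPM in siHOXA3. Liver makes much of the body's cholesterol and fatty acid, and its 7 markers summed to 4.96 to 6.65 CPM in siControl and 3.66 to 6.72 CPM in siHOXA3, with 3 of 7 past the filter and SERPINA1 at 0 in every library. None of the 4 neural markers passed that filter. The pluripotency markers (3 of 4 past the filter, NANOG near 0) summed to 1135 to 1178 CPM in siControl and 1188 to 1322 CPM in siHOXA3. LIN28A made up most of that sum with 1036 to 1196 CPM, beside 93.9 to 117 CPM of DPPA4 and 4.77 to 8.51 CPM of POU5F1. The part of these marker levels in the results on the members was not tested. The library of siHOXA3 replicate 2 stood apart: the counts of all genes differed from those of every other library by a chi-square per degree of freedom of 28.2 to 34.1, against 4.83 to 11.7 among the other libraries. For members whose log2 fold change turned its sign without that library, the value without it is therefore also given, as it is for some others.

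All 30 members passed the filter on low counts, and they were abundant. Levels were compared between genes per length, as TPM, a level scaled to exon length, computed from the counts and the exon length of each gene. By this measure 29 of 30 members lay above the median of the 16561 genes tested, and 20 lay in the top 10%. SCD, the desaturase that places a double bond in saturated fatty acids, led with 2955 ± 94.0 TPM (SD, n = 3) in siControl. FASN, the fatty acid synthase, followed with 1054 ± 13.9 TPM, so that SCD stood 2.80-fold above the next member. The leading sterol genes were MSMO1, a methylsterol oxidase, with 511 ± 54.8 TPM, and HMGCS1, the HMG-CoA synthase, with 438 ± 49.3 TPM. FDFT1 (339 ± 33.0 TPM), SREBF2 (327 ± 3.79 TPM) and ACLY (321 ± 4.92 TPM) came next and did not differ from each other beyond their SDs. At the other end were HSD17B7 (37.3 ± 6.18 TPM), PMVK (30.7 ± 4.92 TPM), MVK (25.5 ± 2.25 TPM) and CYP51A1 (4.63 ± 0.799 TPM). The value of CYP51A1 is not a safe measure of the demethylase: another annotated gene, AC000120.2, covers 79.35% of its exon length on the same strand and had 0 counts in every library, and 81.1% of its 50-base stretches occur in another gene. Together the 30 genes took 1.13% to 1.29% of all counts, and SCD and FASN held 45.7% to 53.1% of that share, the lowest value of both belonging to siHOXA3 replicate 2.

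**Figure D1:**
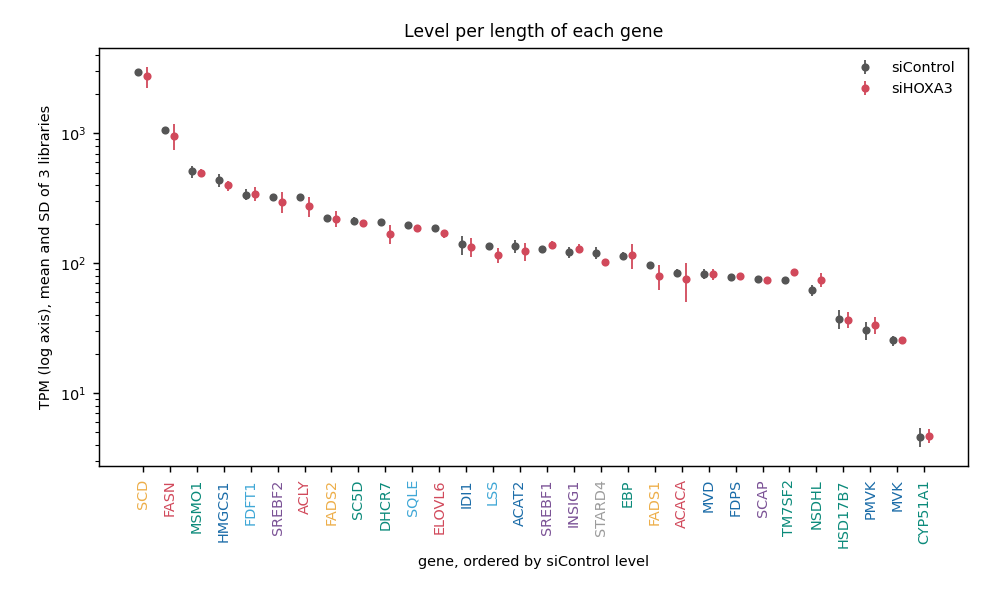
Level of each member per length in TPM on a log axis, with points for the mean and bars for the SD of 3 siControl (grey) or 3 siHOXA3 (red) libraries, ordered by the siControl level. SCD stands at the top with 2955 TPM in siControl and CYP51A1 at the bottom with 4.63 TPM.

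Whether HOXA3 siRNA altered these pathways was asked by comparing siHOXA3 with siControl across all 16561 genes. None of the 30 members passed an adjusted p of 0.05 in edgeR's quasi-likelihood test with Benjamini-Hochberg adjustment (3 at an unadjusted p under 0.05), where 1 gene in all (0.00604%) passed. DESeq2 and limma-voom likewise passed 0 members (3 each at an unadjusted p under 0.05, as did 5.65% and 13.3% of all genes), with 38 (0.26%) and 47 (0.284%) genes passing in all. At an unadjusted p under 0.05, edgeR and DESeq2 both gave DHCR7, NSDHL and TM7SF2, whereas limma-voom gave ACAT2, DHCR7 and STARD4, all lower, without TM7SF2 and NSDHL. The members were split evenly, with 15 log2 fold changes above 0 and 15 below (all genes tested: 50.4% above), and their median was 0.0085 beside 0.0019 for all genes (members: -0.041 without siHOXA3 replicate 2 and -0.056 under limma-voom). Their median absolute log2 fold change was 0.084, against 0.139 for all genes and 0.112 for the 11791 genes in the same range of mean CPM. Replicates of the members were also closer together, with a median SD within groups of 0.142 on the log2 scale against 0.164 in that range. The range ran from the level of CYP51A1 to that of SCD, while 20 members lay in the top 10% by TPM. Neither comparison is thus matched for level. For 20 of 30 members the fold lay between 1.1-fold down and 1.1-fold up. All 30 of the 95% intervals lay within 0.65 of 0 on the log2 scale and 24 within 0.5, so a 2-fold change of any member lay outside its interval.

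An unadjusted edgeR p under 0.05 was reached by 3 members, TM7SF2 and NSDHL on the higher side and DHCR7 on the lower side, which is 10% of the list where 6.36% of all genes tested did so (3.79% higher and 2.57% lower). Groups that did not overlap were found in 7 members. TM7SF2 and SREBF1 were higher in every siHOXA3 library (6.41% of all genes tested), and LSS, DHCR7, ACLY, ELOVL6 and FADS1 were lower in every siHOXA3 library (6.88% of all genes tested). In 5 of the 7, siHOXA3 replicate 2 was the library at the far end. These counts are a description: the members share 6 libraries and no test of the list as a whole was made. In such bulk RNA, fewer cells that express a gene and less RNA per cell cannot be told apart.

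**Figure D2:**
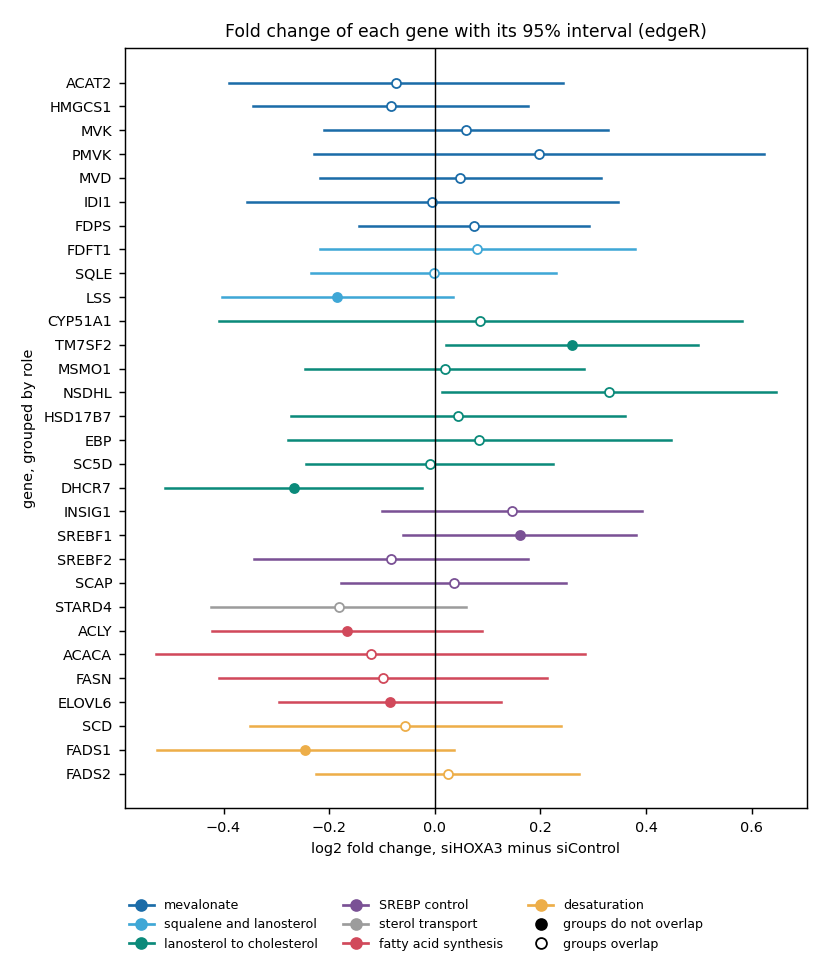
Log2 fold change of each member (siHOXA3 minus siControl) with its 95% interval from edgeR, coloured by role. Filled points mark the 7 members whose groups do not overlap, and the intervals of TM7SF2, NSDHL and DHCR7 are the ones that leave out 0.

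The 7 enzymes that carry acetyl-CoA to farnesyl diphosphate were spread on both sides of 0, 4 higher and 3 lower, with a median log2 fold change of 0.049 that was -0.049 without siHOXA3 replicate 2, -0.084 under limma-voom and -0.0061 under the length and GC correction described further on. HMGCS1 (ENSG00000112972, chromosome 5 from 43289395 to 43313512, minus strand), which forms HMG-CoA and is a standard readout of SREBP activity, had 460.5, 551 and 552 CPM in siControl replicates 1, 2 and 3 and 443, 517 and 514 CPM in the siHOXA3 replicates. Replicate 1 was the low library of either group and the groups overlapped (log2 fold change -0.084, 95% interval -0.34 to 0.18). PMVK, the phosphomevalonate kinase, had the third highest log2 fold change of the list, at 0.20 (95% interval -0.23 to 0.62). Its libraries held 8.39, 11.6 and 9.83 CPM in siControl and 11.3, 13.7 and 9.08 CPM in siHOXA3, with siHOXA3 replicate 2 above the siControl range and the other siHOXA3 libraries within it. Without that library the log2 fold change of PMVK was 0.038, and under the length and GC correction it was 0.062. ACAT2, the cytosolic thiolase at the start of the route, ranged from 116 CPM in siHOXA3 replicate 1 to 172 CPM in siHOXA3 replicate 2 (log2 fold change -0.073). Both extremes thus lay in 1 group. Without siHOXA3 replicate 2 its log2 fold change was -0.25. MVK, the mevalonate kinase (0.059), MVD, the decarboxylase that follows (0.049), IDI1, the isopentenyl diphosphate isomerase (-0.0046), and FDPS, the farnesyl diphosphate synthase (0.075), had small log2 fold changes and overlapping groups. IDI1 varied most among these, from 128 to 193 CPM, and FDPS least, from 71.5 to 84.1 CPM. Without siHOXA3 replicate 2 the log2 fold changes were -0.032 for MVK, -0.049 for MVD, -0.21 for IDI1 and 0.012 for FDPS.

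Squalene and lanosterol are made by FDFT1, SQLE and LSS. SQLE (ENSG00000104549, chromosome 8 from 124998497 to 125022283, plus strand), the squalene epoxidase and a rate-limiting enzyme of the late route, had 207, 212 and 222 CPM in siControl and 202, 239 and 199 CPM in siHOXA3. The siControl values fell inside the siHOXA3 range, and the log2 fold change was -0.0019 (95% interval -0.23 to 0.23). FDFT1, the squalene synthase, ranged from 409 to 567 CPM, with only siHOXA3 replicate 2 above the siControl libraries. Its log2 fold change was 0.081, and -0.078 without that library. LSS (ENSG00000160285, chromosome 21 from 46188141 to 46228824, minus strand), the lanosterol synthase that closes the ring system, had 245, 252 and 253 CPM in siControl and 226, 201 and 232 CPM in siHOXA3. Every siHOXA3 library lay below every siControl library, by a log2 fold change of -0.18 (95% interval -0.40 to 0.034, unadjusted p = 0.0903, edgeR adjusted p = 0.813), and the value stayed between -0.23 and -0.13 under the alternatives tried.

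The 8 enzymes from lanosterol to cholesterol held both ends of the list, and 6 of the 8 had log2 fold changes above 0 (median 0.064). That median was -0.049 without siHOXA3 replicate 2, -0.067 under limma-voom and -0.026 without siControl replicate 1. TM7SF2 (ENSG00000149809, chromosome 11 from 65111845 to 65116384, plus strand), a sterol reductase that follows the lanosterol demethylase, had 60.6, 67.7 and 63.3 CPM in siControl and 70.3, 85.2 and 73.9 CPM in siHOXA3. All siHOXA3 libraries were above all siControl libraries, and replicate 2 was the highest (mean 63.9 ± 3.60 against 76.5 ± 7.76 CPM, SD, n = 3 each). For TM7SF2 the log2 fold change was 0.26 (95% interval 0.021 to 0.50, unadjusted p = 0.0353, edgeR adjusted p = 0.744), and 0.17 without siHOXA3 replicate 2. NSDHL (ENSG00000147383, chromosome X from 152830967 to 152869729, plus strand), a dehydrogenase that helps to strip methyl groups from the sterol, had 28.5, 33.8 and 32.0 CPM in siControl and 39.5, 46.6 and 32.4 CPM in siHOXA3. Replicates 1 and 2 of siHOXA3 were above all siControl libraries, but replicate 3 lay among them. The log2 fold change of NSDHL was the highest of the list at 0.33 (95% interval 0.014 to 0.65, unadjusted p = 0.0421, edgeR adjusted p = 0.762), and 0.19 without siHOXA3 replicate 2. DHCR7 (ENSG00000172893, chromosome 11 from 71428193 to 71452868, minus strand), the reductase that completes cholesterol, had 213, 222 and 226 CPM in siControl and 193, 158 and 199 CPM in siHOXA3. Its groups did not overlap, siHOXA3 replicate 2 was the lowest, and the means were 221 ± 6.75 and 183 ± 22.2 CPM (SD, n = 3 each). DHCR7 had the lowest log2 fold change of the list, -0.27 (95% interval -0.51 to -0.024, unadjusted p = 0.0338, edgeR adjusted p = 0.741), and remained at -0.17 without siHOXA3 replicate 2, where its unadjusted p again lay under 0.05. No member had an unadjusted p under 0.05 without siControl replicate 1, 2 or 3 (5.78%, 3.75% and 3.91% of all genes did), and 3 members had one without siHOXA3 replicate 1, 2 or 3 (6%, 10.7% and 7.97% of all genes did).

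The other 5 enzymes of this stretch overlapped between groups. MSMO1, which oxidizes the methyl groups, ranged from 334 to 424 CPM (log2 fold change 0.019). EBP, the sterol isomerase, ranged from 62.0 to 97.8 CPM, with siHOXA3 replicate 2 alone at the top (log2 fold change 0.084, and -0.17 without that library). SC5D, the lathosterol desaturase, ranged from 280.2 to 326 CPM (log2 fold change -0.0096). HSD17B7, the ketosteroid reductase of the demethylation complex, had a log2 fold change of 0.044, and its transcripts share 14.2% of their 50-base stretches, chiefly with the pseudogene HSD17B7P2, which had 169 to 297 counts beside 555 to 767 for HSD17B7. CYP51A1, the lanosterol demethylase, was counted 55 to 75 times per library (log2 fold change 0.086). Without siHOXA3 replicate 2 the log2 fold changes were -0.074 for MSMO1, -0.084 for SC5D, -0.024 for HSD17B7 and -0.0080 for CYP51A1.

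The SREBP system itself showed 3 log2 fold changes above 0 and 1 below (median 0.091, and 0.030 without siHOXA3 replicate 2). SREBF1 (ENSG00000072310, chromosome 17 from 17810399 to 17837002, minus strand) had 277, 265 and 243 CPM in siControl and 279, 297 and 301 CPM in siHOXA3. All siHOXA3 libraries were above all siControl libraries, though siControl replicate 1 and siHOXA3 replicate 1 were nearly equal, and the log2 fold change was 0.16 (95% interval -0.060 to 0.38, unadjusted p = 0.138, edgeR adjusted p = 0.829). SREBF2 (ENSG00000198911, chromosome 22 from 41833079 to 41907308, plus strand) had 638, 634 and 604 CPM in siControl and 597, 513 and 662 CPM in siHOXA3, where both the lowest and the highest library belonged to siHOXA3. Its log2 fold change was -0.082 (95% interval -0.34 to 0.18), and 0.0060 without siHOXA3 replicate 2. INSIG1 (ENSG00000186480, chromosome 7 from 155297776 to 155310235, plus strand), which retains the SREBPs and is itself an SREBP target, had 106, 109 and 123 CPM in siControl and 112, 139.6 and 123 CPM in siHOXA3. Replicate 2 of siHOXA3 was above the others and the remaining libraries overlapped (log2 fold change 0.15, 95% interval -0.10 to 0.39, and 0.053 without that library). SCAP, the escort protein, ranged only from 115 to 131 CPM (log2 fold change 0.035). STARD4, which carries cholesterol between membranes, ranged from 141 to 184 CPM with the lowest libraries in siHOXA3, but the groups overlapped through siControl replicate 1 (log2 fold change -0.18, 95% interval -0.42 to 0.059).

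**Figure D3:**
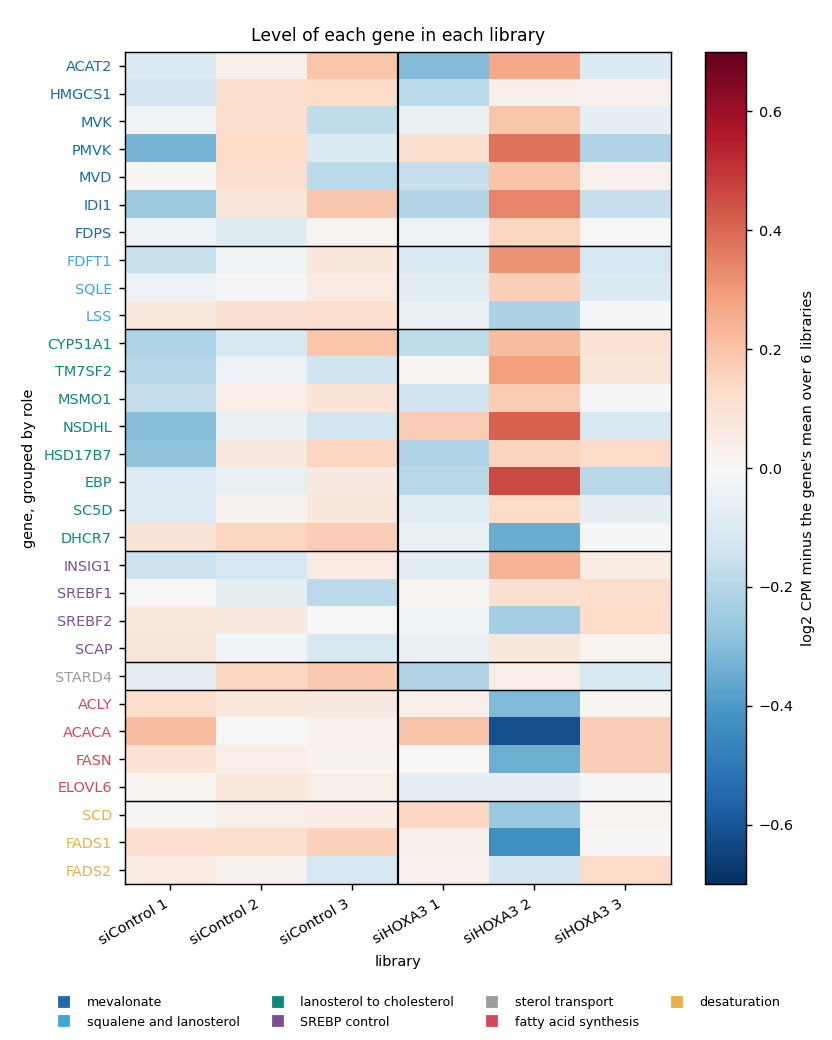
Heat map of log2 CPM minus the gene's mean over the 6 libraries, with 1 row per member grouped by role and 1 column per library, red for above and blue for below the mean. The column of siHOXA3 replicate 2 holds the strongest colours, from -0.62 for ACACA to 0.46 for EBP, and no other column divides the list so sharply by role.

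Promoter sequences were added from RefSeq on GRCh38.p14, as windows from 250 bases before to 50 bases after each annotated start, which matched 26 of the 30 members by symbol in 35 windows. FDFT1, ACAT2, FASN and SQLE were not matched. The motifs were searched on both strands as TCACNCCAC and its form TCACCCCAC (a sterol regulatory element), CCAAT (the NF-Y box) and GGGCGG (the Sp1 box), the last pair being common partners of SREBPs. TCACNCCAC, which includes every TCACCCCAC, was found for 1 of the 26 members (3.85%), SREBF2, against 1.39% of all 27305 genes with a window (TCACCCCAC: 0.535%). Over the 35116 windows of the table the shares were 1.13% and 0.43%. CCAAT was found for 20 of the 26 members (76.9%) against 39.7% of all genes with a window, and GGGCGG for 25 of 26 (96.2%) against 48.3%. The comparison with all genes was not matched for expression or gene type, and a match shows only that the letters are there. Only this spelling of the sterol element was searched, and only in these windows. A member without a match is thus not shown to lack such an element. The windows below are those of SREBF2, which holds the TCACNCCAC match, and of TM7SF2, NSDHL and DHCR7, the 3 members with an unadjusted p under 0.05. Capitals mark matches on either strand, so that CCAAT may appear as ATTGG and GGGCGG as CCGCCC. The windows lie at chr22:41832855-41833154 on the plus strand for SREBF2, chr11:65111622-65111921 on the plus strand for TM7SF2, chrX:152830813-152831112 on the plus strand for NSDHL and chr11:71448344-71448643 on the minus strand for DHCR7, which has 2 windows in the table.
SREBF2: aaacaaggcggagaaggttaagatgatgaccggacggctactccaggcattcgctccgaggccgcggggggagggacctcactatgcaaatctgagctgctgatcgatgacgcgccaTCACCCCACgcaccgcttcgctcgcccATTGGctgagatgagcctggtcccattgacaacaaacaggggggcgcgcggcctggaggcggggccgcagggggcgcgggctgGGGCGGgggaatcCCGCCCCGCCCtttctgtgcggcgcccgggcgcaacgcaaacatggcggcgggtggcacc
TM7SF2: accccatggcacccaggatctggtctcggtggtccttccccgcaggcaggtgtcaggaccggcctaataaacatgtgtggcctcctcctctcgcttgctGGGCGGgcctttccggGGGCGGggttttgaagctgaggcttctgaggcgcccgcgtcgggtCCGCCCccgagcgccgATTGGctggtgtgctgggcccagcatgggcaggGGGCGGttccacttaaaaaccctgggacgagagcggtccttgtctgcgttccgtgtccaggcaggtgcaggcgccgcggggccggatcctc
NSDHL: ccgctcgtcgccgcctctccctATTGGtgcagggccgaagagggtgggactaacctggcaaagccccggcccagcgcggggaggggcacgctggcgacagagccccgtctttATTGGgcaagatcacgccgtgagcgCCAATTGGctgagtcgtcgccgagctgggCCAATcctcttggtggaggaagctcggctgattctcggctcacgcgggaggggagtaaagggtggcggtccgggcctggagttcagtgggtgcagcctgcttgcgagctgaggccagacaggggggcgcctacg
DHCR7: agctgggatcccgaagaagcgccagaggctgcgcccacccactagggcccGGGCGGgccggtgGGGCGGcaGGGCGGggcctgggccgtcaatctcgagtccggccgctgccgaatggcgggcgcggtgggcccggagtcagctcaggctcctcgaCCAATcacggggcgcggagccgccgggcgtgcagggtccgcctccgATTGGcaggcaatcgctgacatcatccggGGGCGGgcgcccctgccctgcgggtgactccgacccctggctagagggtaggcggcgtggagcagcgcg
In SREBF2 the TCACCCCAC match begins at position -133 from the start, with a CCAAT match at -106 and 3 GGGCGG matches between -23 and -5. NSDHL holds 5 CCAAT matches and is the member without GGGCGG. TM7SF2 holds 1 CCAAT and 4 GGGCGG matches, and DHCR7, whose fold change had the opposite sign, holds 2 and 4. The window of DHCR7 was chosen from its 2 by the number of CCAAT matches, the higher first. That choice favours its CCAAT count.

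The 4 enzymes of fatty acid synthesis all had log2 fold changes below 0 (median -0.11, and -0.020 without siHOXA3 replicate 2), and 2 of the 4 had groups that did not overlap (all genes tested: 13.3% in either direction and 6.88% lower). ACLY (ENSG00000131473, chromosome 17 from 41866908 to 41930542, minus strand), which cleaves citrate to supply cytosolic acetyl-CoA to both routes, had 435, 421 and 418 CPM in siControl and 409, 323 and 403 CPM in siHOXA3. Each siHOXA3 library was below each siControl library, with replicate 2 far below, at a log2 fold change of -0.17 (95% interval -0.42 to 0.089, unadjusted p = 0.180, edgeR adjusted p = 0.843) that was -0.067 without that library. ELOVL6 (ENSG00000170522, chromosome 4 from 110045846 to 110199199, minus strand), which elongates saturated fatty acids, had 338, 352 and 345 CPM in siControl and 321, 322 and 333 CPM in siHOXA3. Its siHOXA3 libraries were all lower by a narrow margin, and its highest and lowest libraries differed less than those of any other member (log2 fold change -0.084, 95% interval -0.29 to 0.13). FASN (ENSG00000169710, chromosome 17 from 82078333 to 82098332, minus strand) had 2563, 2486 and 2448 CPM in siControl and 2403, 1899 and 2705 CPM in siHOXA3. The lowest and the highest library were both siHOXA3, and the log2 fold change of -0.10 (95% interval -0.41 to 0.21) was 0.028 without replicate 2. ACACA, the acetyl-CoA carboxylase that forms malonyl-CoA, spread most of all members, by 1.78-fold from 170.3 CPM in siHOXA3 replicate 2 to 303 CPM in siControl replicate 1. Its log2 fold change of -0.12 (95% interval -0.53 to 0.29) was 0.097 without siHOXA3 replicate 2.

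Of the 3 desaturases, FADS1 (ENSG00000149485, chromosome 11 from 61799625 to 61829318, minus strand) had 249, 248 and 257 CPM in siControl and 236, 170.4 and 231 CPM in siHOXA3. FADS1 acts on polyunsaturated fatty acids, and its siHOXA3 libraries were all below its siControl libraries, with replicate 2 the lowest (log2 fold change -0.25, 95% interval -0.53 to 0.036, unadjusted p = 0.0813, edgeR adjusted p = 0.801). Without that library the value was -0.11. SCD (ENSG00000099194, chromosome 10 from 100347124 to 100364834, plus strand) had 3943, 4027 and 4059 CPM in siControl and 4336, 3271 and 3965 CPM in siHOXA3. The siHOXA3 libraries included both the lowest and the highest value, and the log2 fold change was -0.056 (95% interval -0.35 to 0.24). Without siHOXA3 replicate 2 the log2 fold change of SCD was 0.047. FADS2 (ENSG00000134824, chromosome 11 from 61792980 to 61867354, plus strand), which acts earlier on the same polyunsaturated fatty acids, had 656, 639 and 581 CPM in siControl and 643, 576 and 690.0 CPM in siHOXA3. Both its lowest and its highest library were siHOXA3 (log2 fold change 0.025, 95% interval -0.22 to 0.27). FADS1 and FADS2 lie on opposite strands and share 490 exon bases, and since the counting is not stated to use strand, reads of that stretch cannot be assigned to either.

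A further list of 32 genes of the same pathways had 17 log2 fold changes above 0 and 15 below, a median of 0.0042 (-0.061 without siHOXA3 replicate 2) and no adjusted p under 0.05 in edgeR. Among the 3 with an unadjusted p under 0.05 (all genes tested: 6.36%), DHDDS, which makes dolichol precursors from farnesyl diphosphate, had 46.3, 45.5 and 43.4 CPM in siControl and 38.4, 33.7 and 39.4 CPM in siHOXA3, lower in every library (log2 fold change -0.28, unadjusted p = 0.0264, edgeR adjusted p = 0.727). SLC25A1, the mitochondrial citrate carrier that feeds ACLY, had 178, 168 and 155 CPM in siControl and 183, 239 and 189 CPM in siHOXA3, higher in every library (log2 fold change 0.29, unadjusted p = 0.0374, edgeR adjusted p = 0.756). Its log2 fold change was 0.15 without siHOXA3 replicate 2 and 0.071 under the length and GC correction. TECR, a reductase of fatty acid elongation, had 128, 122 and 111 CPM in siControl and 129.5, 163 and 137 CPM in siHOXA3, also higher in every library (log2 fold change 0.25, unadjusted p = 0.0458, edgeR adjusted p = 0.769), and its log2 fold change was 0.15 without siHOXA3 replicate 2. The citrate carrier and the citrate lyase it supplies thus had opposite signs. MBTPS1, the protease that first cuts SREBPs in the Golgi, was lower in every siHOXA3 library, with 145, 144 and 149.7 CPM against 134, 113 and 137 CPM (log2 fold change -0.19, 95% interval -0.42 to 0.031, and -0.12 without siHOXA3 replicate 2). NR1H2, the LXR form found in most tissues, was higher in every siHOXA3 library, with 30.1, 29.01 and 30.1 CPM against 30.7, 40.0 and 31.1 CPM (log2 fold change 0.19, 95% interval -0.10 to 0.48, and 0.051 without siHOXA3 replicate 2). Groups were thus apart on the higher side in 3 of the 32 genes, where 6.41% of all genes tested were. On the lower side they were apart in 2 of the 32, where 6.88% of all genes tested were. In the remaining 27 the groups overlapped.

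Among the members, siHOXA3 replicate 2 parted from the other libraries in both directions. In that library, 17 of 30 members had their highest value and 9 their lowest (all genes tested: 28.9% highest and 29.2% lowest there). Only the share of highest values was thus above that of all genes, and the share of lowest values was near it. The direction in that library followed the role. There, 16 of the 18 sterol enzymes were above their mean over the 6 libraries, by 0.19 on average on the log2 scale, the exceptions being LSS and DHCR7. In the same library 0 of the 7 fatty acid and desaturation enzymes were above their mean, with an average of -0.31. The difference between both averages was 0.49 in siHOXA3 replicate 2 and lay between -0.21 and 0.0072 in the other 5 libraries. The sterol enzymes were on the other hand low in siControl replicate 1, where their average deviation was -0.12, and in siHOXA3 replicate 1, where it was -0.096, with 3 of 18 above their mean in either. Across groups the sterol enzymes had a median log2 fold change of 0.046 and the fatty acid enzymes one of -0.098. Without siHOXA3 replicate 2 these medians were -0.076 and 0.028.

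**Figure D4:**
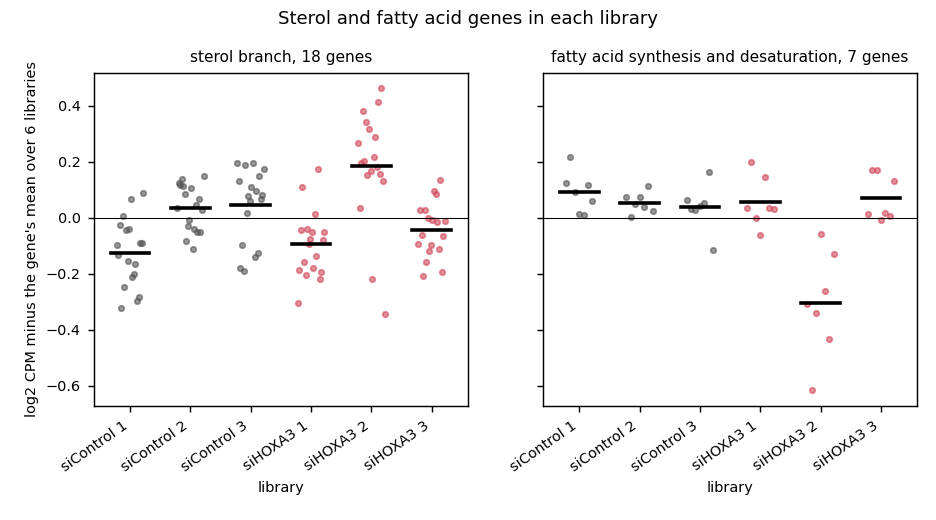
Log2 CPM minus the gene's mean over 6 libraries for the 18 sterol enzymes (left) and the 7 fatty acid and desaturation enzymes (right), 1 point per gene, with black bars for the mean of each library (siControl grey, siHOXA3 red). In siHOXA3 replicate 2 the sterol bar lies at 0.19 and the fatty acid bar at -0.31, while in each of the other 5 libraries both bars lie between -0.12 and 0.090.

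Transcript length moved with this pattern. Over the 16556 genes tested that had an annotated transcript sequence, the deviation in siHOXA3 replicate 2 had a Spearman correlation of -0.39 with the length of the longest transcript, against 0.069 to 0.15 in the other 5 libraries. The longest transcripts of the sterol enzymes ran from 1280 to 4936 bases (median 2663), and those of the fatty acid enzymes from 4339 to 9961 bases (median 5362). Over the 30 members the same correlation was -0.75, given as a description of points from the same library. A smooth trend over length and GC content was then subtracted from each library, a step added after the data were seen. With it the sterol average in siHOXA3 replicate 2 was 0.14 (13 of 18 above their mean). The fatty acid average was -0.11 (2 of 7), and the difference was 0.25. The correction did not take out all of the length trend in that library. A correlation with length of -0.086 remained over the 16556 genes, and one of -0.49 over the 30 members. In the other libraries the corrected difference lay between -0.15 and 0.028. With that correction the log2 fold changes were 0.10 for TM7SF2, 0.26 for NSDHL and -0.31 for DHCR7, and the members with an unadjusted p under 0.05 were DHCR7 and FADS1 (7.32% of all genes). DHCR7 went against the trend, with a transcript of 2666 bases and a deviation of -0.35 in siHOXA3 replicate 2 before and after the correction. Beyond these values, the part of length in the pattern was not tested.

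**Figure D5:**
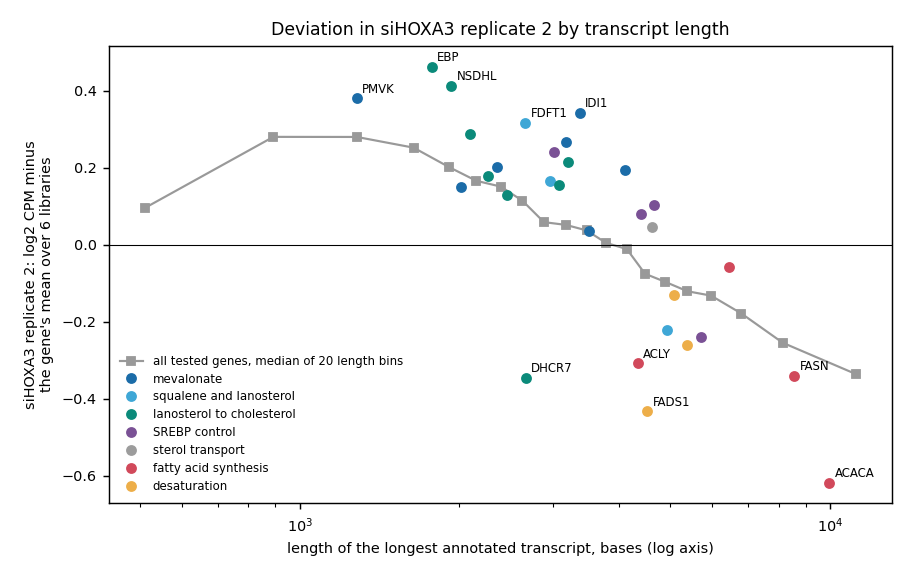
Deviation of each member in siHOXA3 replicate 2 (log2 CPM minus the mean over 6 libraries) against the length of its longest transcript in bases on a log axis, coloured by role. Grey squares are medians of all tested genes in 20 bins of length, which run from 0.28 at a median of 892 bases to -0.34 at 11198 bases, and DHCR7 and FADS1 lie well below that line.

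Counts of some members are also uncertain because their sequence is not theirs alone. In ACAT2, 49.6% of the 50-base stretches also occur in SOD2, SOD2-OT1 or TCP1, which overlap it on the opposite strand. The share was 14.3% for IDI1, 13.4% for FDPS and 12.9% for HMGCS1, mostly through antisense genes, and 0% for PMVK, SQLE, TM7SF2, NSDHL, EBP, DHCR7, INSIG1 and FASN. The 3 members with an unadjusted p under 0.05 were thus among those without shared stretches.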

How the data were processed

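RNA was sequenced as single reads from LM-Seq libraries of 3 siControl and 3 siHOXA3 samples, and the labels also name a SMARTER kit. The authors deposited raw read counts per gene without normalization. The labels list the mouse builds GRCm38 and mm10, while all 58735 identifiers are human ones of GENCODE 29 on GRCh38. The aligner and counter are not given in the sources used here. Groups were taken from the labels, and no 2 libraries agreed within sampling noise.

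The counts were fitted in R 4.3.3 by edgeR 4.0.16 (filterByExpr, TMM, robust quasi-likelihood fit, two-sided test), and p-values were adjusted over 16561 genes by the Benjamini-Hochberg method. CPM and TPM were computed here from the deposited counts. On counts simulated for this comparison (16227 genes, 200 of them changed), edgeR recovered 83.1% of the genes changed 2-fold and 99.1% of those changed 4-fold. Smaller changes were not simulated, and genes of very low level were not among those changed. The simulated counts held no library that stood apart as siHOXA3 replicate 2 did, and no trend with length. Alternatives were DESeq2 1.42.0, limma 3.58.1 voom with sample quality weights, library size only, upper-quartile normalization, the unfiltered table, CPM above 1 in at least 3 libraries, a replicate block and each library left out, and, added after the data were seen, a length and GC correction with mgcv 1.9.3. Every member is named. Values in every library are given for members with an unadjusted p under 0.05 or groups that do not overlap, for the 3 largest and 3 smallest fold changes, and for 10 chosen members. The members and lists were chosen with earlier results of these data known.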

Additional observations from a re-analysis of the deposited data

How the results depend on the processing

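The adjusted p of all 30 members stayed above 0.05 under all 14 alternatives (lowest 0.202, for STARD4). Of 420 values of a member under an alternative, 373 kept their direction and 47 turned it, in 17 members whose log2 fold changes in the edgeR fit lay between -0.12 and 0.086, while 13 members (HMGCS1, PMVK, FDPS, LSS, TM7SF2, NSDHL, DHCR7, INSIG1, SREBF1, STARD4, ACLY, ELOVL6 and FADS1) never turned. Under limma-voom with sample quality weights the log2 fold changes that turned were -0.048 for MVK, -0.084 for MVD, -0.041 for FDFT1, -0.076 for MSMO1, -0.063 for HSD17B7, -0.12 for EBP, 0.074 for ACACA and 0.037 for SCD. Under the length and GC correction they were -0.078 for MVD and -0.018 for MSMO1, under upper-quartile normalization 0.016 for IDI1, 0.019 for SQLE and 0.011 for SC5D, and with no filter 0.00047 for IDI1 and 0.0026 for SQLE. With 1 library left out, all values of these 17 members, turned or not, ran from -0.25 to 0.050 for ACAT2, -0.032 to 0.13 for MVK, -0.049 to 0.14 for MVD, -0.21 to 0.096 for IDI1, -0.078 to 0.16 for FDFT1, -0.094 to 0.048 for SQLE, -0.0080 to 0.22 for CYP51A1, -0.074 to 0.091 for MSMO1, -0.075 to 0.16 for HSD17B7, -0.17 to 0.20 for EBP, -0.084 to 0.029 for SC5D, -0.17 to 0.0060 for SREBF2, -0.0099 to 0.084 for SCAP, -0.26 to 0.097 for ACACA, -0.22 to 0.028 for FASN, -0.15 to 0.047 for SCD and -0.036 to 0.089 for FADS2. The cause was not tested.

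Of all genes, those with an adjusted p under 0.05 numbered 100 with no filter, 38 under DESeq2, 47 under limma-voom and 1 to 24 with 1 library left out (24 without siHOXA3 replicate 2), and those with an unadjusted p under 0.05 numbered 1862, 2206 and 643 to 1828 with no filter, limma-voom and 1 library left out. With 1 library left out, members with an unadjusted p under 0.05 numbered 0 to 3 and further pathway genes 0 to 3. Leaving out siHOXA3 replicate 2 gave ACAT2, DHCR7 and STARD4, all lower. Same-numbered libraries had correlations of deviations of 0.14, 0.099 and -0.056, and differently numbered ones had -0.17 to 0.086. Whether same-numbered libraries were handled together was not tested. A fit with the replicate block gave 4 genes with an adjusted p under 0.05 and 3 members with an unadjusted one, as had 1109 of all 16561 genes tested.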
